A study of Mus musculus with 12 samples.

Results

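Hearts of Cd163-/- mice were set against hearts of wild-type mice across both kinds of surgery, to find the genes that differed by genotype in the sham-operated and in the pressure-loaded heart alike. Of 15804 genes tested, 505 had all 6 knockout (KO) libraries above, or all 6 below, the 6 wild-type (WT) libraries. These are called separated genes here. They comprised 257 genes higher in KO, which is 1.63% of the genes tested, and 248 genes lower in KO, which is 1.57%. Separation was the criterion of choice and carries no test of its own. An edgeR fit of the same 12 libraries, with surgery as a covariate, gave each gene its fold change and its p adjusted over all genes.

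RNA was measured by mRNA sequencing of heart tissue from 12 male mice, with 3 libraries in each of 4 groups. WT mice were C57BL/6J, and KO mice carried the constitutive Cd163-/- genotype on that background, so the altered allele is carried by every cell type and not by macrophages alone. At 8 weeks of age the mice had either transverse aortic constriction (TAC), in which the aortic arch is tied over a 27-gauge needle so that the left ventricle pumps against a raised pressure, or a sham operation without the tie. The groups were sham and TAC hearts of each genotype, and the TAC libraries carry the replicate numbers 1, 3 and 5. The sources used here do not give the deleted piece of Cd163, the time from surgery to collection, or whether controls were littermates. The labels do not tie libraries to named animals, so the p-values below reflect how these samples spread, which may be partly technical.

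CD163 is a scavenger receptor on the surface of tissue macrophages. It binds haemoglobin that has escaped from red cells, mostly as a complex with haptoglobin, and carries it into the macrophage, where haem oxygenase breaks down the haem and iron is stored or exported. This uptake is tied to an anti-inflammatory macrophage state that includes interleukin-10, and in the resting heart most macrophages are long-lived resident cells that carry CD163 among their markers. A bulk heart library is mostly RNA of cardiomyocytes, and in it fewer cells of a type and less RNA per cell cannot be told apart.

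Libraries held 14150109 to 22602225 counts. Levels are given as CPM, read counts scaled to a common library size with TMM factors, and log2 fold changes are KO minus WT. The heart label fitted the cardiomyocyte markers, whose 8 genes summed to 51700 to 57300 CPM in WT and 27000 to 49200 CPM in KO. KO sham replicate 1 stood with the KO TAC libraries on the first principal component (44.6, against 40.4 to 44.9 for KO TAC), WT TAC replicate 1 stood at 6.69, and the other 7 libraries stood between -32.9 and -17.9. This component held 66.7% of the variance. Transcripts of the mitochondrial genome took 24.8 to 36.9% of counts in WT, 30.5% and 31.6% in KO sham replicates 3 and 2, 51.0% in KO sham replicate 1 and 44.0 to 51.3% in KO TAC. The KO group was therefore made of 4 libraries that resembled each other and 2 sham libraries that lay among the WT ones, and a separated gene is a gene for which those 2 sham libraries also lay apart from WT. Whether the library labelled KO sham replicate 1 came from a sham-operated or from a TAC heart cannot be told apart from these counts. Every value by surgery below rests on its label, and several are also given without it.

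Cd163 itself (ENSMUSG00000008845, chromosome 6) stood at 16.1, 15.6 and 14.02 CPM in the sham-operated WT hearts and at 29.1, 13.7 and 29.5 CPM in those with TAC. In KO hearts it stood at 3.14, 4.60 and 4.50 CPM after sham and at 4.07, 3.68 and 3.47 CPM after TAC. The genotypes did not overlap, and each KO library still held between 46 and 112 counts of the gene. It fell by 2.28 ± 0.22 (SE) on the log2 scale, 4.85-fold, with an adjusted p of 0.000738. The fall was 1.89 after sham and 2.69 after TAC on that scale (-1.89 and -2.69), and the interaction of genotype with surgery had an adjusted p of 0.553. Which exons the remaining counts came from was not analysed here, since the counts are per gene. Il10, the interleukin-10 gene, had 2 and 1 counts summed over the WT sham and TAC groups and 2 and 3 over the KO ones, and was too low to be tested.

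The edgeR fit called 3845 genes at an adjusted p under 0.05. Of these, 1989 rose in KO (12.6% of the genes tested) and 1856 fell (11.7%). Among the 505 separated genes 457 were called, 235 higher (1.49% of the genes tested) and 222 lower (1.40%), and 48 were not, their highest adjusted p being 0.206. The other 3388 called genes had KO and WT libraries that overlapped. Most separated genes differed modestly, with a median of 1.47-fold among those higher and 1.52-fold among those lower, and 45 were at least 2-fold higher and 44 at least 2-fold lower. The median log2 fold change over all tested genes was 0.00.

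How many genes were called depended on single libraries. The count ran from 343 without KO TAC replicate 3 to 6138 without KO sham replicate 2, and between 152 and 454 of the 457 separated and called genes were called in these refits. Leaving out WT TAC replicate 3, KO TAC replicate 1, WT TAC replicate 5, KO TAC replicate 5 or WT sham replicate 1 gave 519, 569, 759, 833 and 1056 calls. Leaving out WT sham replicate 2 or KO sham replicate 1 gave 1881 and 1945. Without both WT TAC replicate 1 and KO sham replicate 1, 2831 genes were called, 386 of the 457 among them, and 486 of the 505 genes stayed separated. With the mitochondrial share of each library as a covariate 32 genes were called, of which 20 belonged to the 457. In that fit 2 extracellular matrix genes and 1 chaperone gene were the only calls in the gene lists described below. With library totals in place of TMM 830 were called, 515 higher and 315 lower, so that the share of higher calls went from 51.7 to 62.0%, and 259 genes were separated. Against 505 separated genes, 1339 were counted when WT TAC replicate 1 was left out and 980 when KO sham replicate 2 was. Separation is easier to meet with fewer libraries, so these counts and the 486 genes that stayed separated do not measure stability. All 505 genes kept the direction of their fold change in each of these fits, which their choice largely fixes where libraries are left out.

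**Figure D1:**
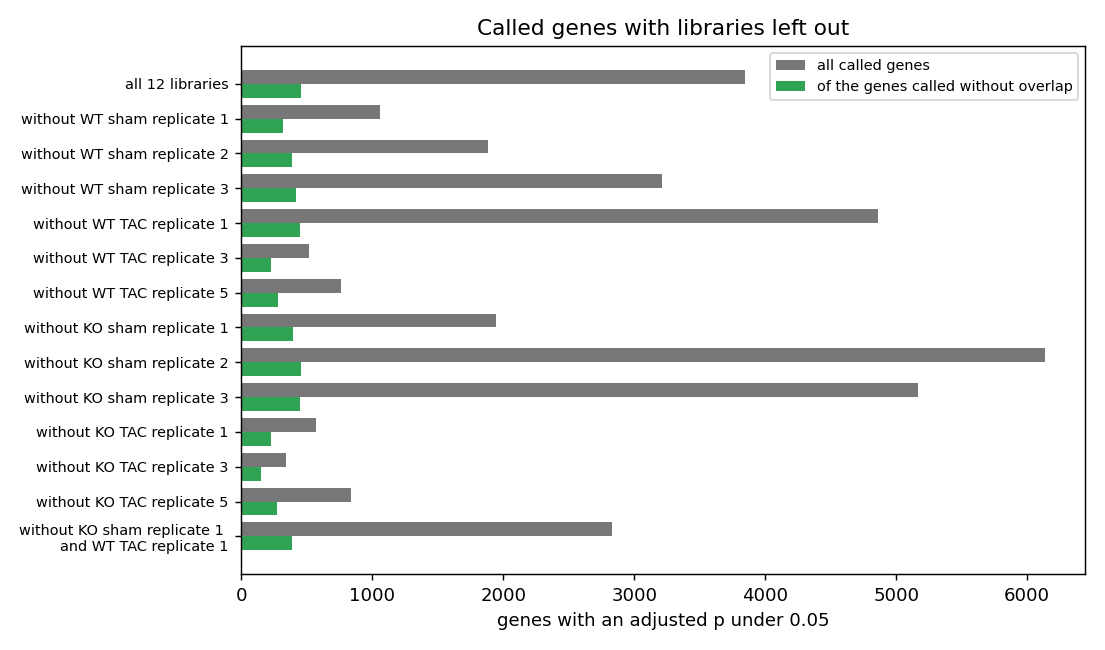
Number of genes with an edgeR adjusted p under 0.05 (horizontal axis) with all 12 libraries, with each library left out in turn, and with both WT TAC replicate 1 and KO sham replicate 1 left out. Grey bars count all called genes and green bars count those among the 457 genes called without overlap. The grey bars range from 343 to 6138, the green ones from 152 to 457.

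Of 81 genes chosen by rule for naming, 74 were called. Of these, 45 kept the call with each single library left out, and 29 lost it without at least 1 library, most often KO TAC replicate 3 (27 genes), WT TAC replicate 3 (23) or KO TAC replicate 1 (21). Among the 29 are Fabp3, Idh2, Slc2a1, Uqcrb, Ndufb10, Tnnt2, Hspb7, Hspe1, Nmrk2, Wnt4, Sik1, Trf, Il4ra and Pex5, with 1 to 6 such libraries each, and Tek, Lum (8 each) and Trbc2 (9). The other called genes described below were not part of this count.

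The most stable members were 14 genes that were called in all 25 fits other than the one that asked for a minimum change of 1.5-fold. These were Cd163, Pdcd5, Irx3, Cirbp, Tac1, Gm2962 and Gm47283 among the genes that fell, and Col6a3, Papln, Tuba1a, Stk17b, Skil, Slc5a3 and Dnaja1 among those that rose. Of the 14, 12 also stayed separated under all 5 other scalings. The exceptions were Tuba1a, which overlapped with library totals, and Papln, which overlapped after removal of a trend with GC content.

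Pdcd5, which encodes a small protein linked to programmed cell death, stood at 31.9 to 52.6 CPM in WT (median 43.8) and at 16.4 to 20.6 CPM in KO (median 18.7). Both genotypes were well apart in each surgery, and the gene fell by 1.16 ± 0.12 on the log2 scale (adjusted p 0.000738). Irx3, a homeobox factor of the ventricular conduction system, stood at 19.5 to 23.6 CPM in WT (median 22.0). In KO it stood at 6.83 to 14.8 CPM (median 8.44), with KO sham replicate 2 the highest. It fell by 1.27 ± 0.14 (adjusted p 0.00218). An antisense gene, Irx3os, overlaps its exons on the other strand, and the sources used here do not give whether counting used strand.

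Cirbp, an RNA-binding protein induced by cold, stood at 37.9 to 45.5 CPM in WT (median 41.2) and 20.8 to 29.2 CPM in KO (median 23.7). The change was of 1 size in both surgeries, -0.79 after sham and -0.80 after TAC. Tac1, the precursor of the neuropeptide substance P, is a low transcript in heart, at 0.737 to 1.99 CPM in WT (median 1.87) and 0.197 to 0.698 CPM in KO (median 0.434). WT TAC replicate 1, at 0.737 CPM, lay close to the KO range while the other 5 WT libraries stood at 1.80 CPM or above. Tac1 fell by 2.01 ± 0.29 (adjusted p 0.00964).

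Slc5a3, a sodium-coupled transporter of the osmolyte inositol, stood at 2.995 to 5.49 CPM in WT (median 4.03) and at 8.22 to 16.9 CPM in KO (median 13.03). It rose 3.07-fold (log2 1.62 ± 0.21, adjusted p 0.00537), and its exons overlap those of Mrps6 on the same strand, so that reads of the 2 genes may not be told apart. Stk17b, a kinase of the death-associated family, had the narrowest WT range of this set, 10.98 to 12.1 CPM, against 16.7 to 23.3 CPM in KO (log2 0.78 ± 0.09, adjusted p 0.00223). Skil, a repressor of SMAD proteins in TGF-beta signalling, stood at 23.4 to 28.004 CPM in WT and 34.1 to 49.1 CPM in KO (log2 0.79 ± 0.10). Tuba1a, an alpha-tubulin whose close copies can share reads with it, stood at 39.0 to 58.3 CPM in WT and 63.3 to 100.1 CPM in KO (log2 0.99 ± 0.13).

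**Figure D2:**
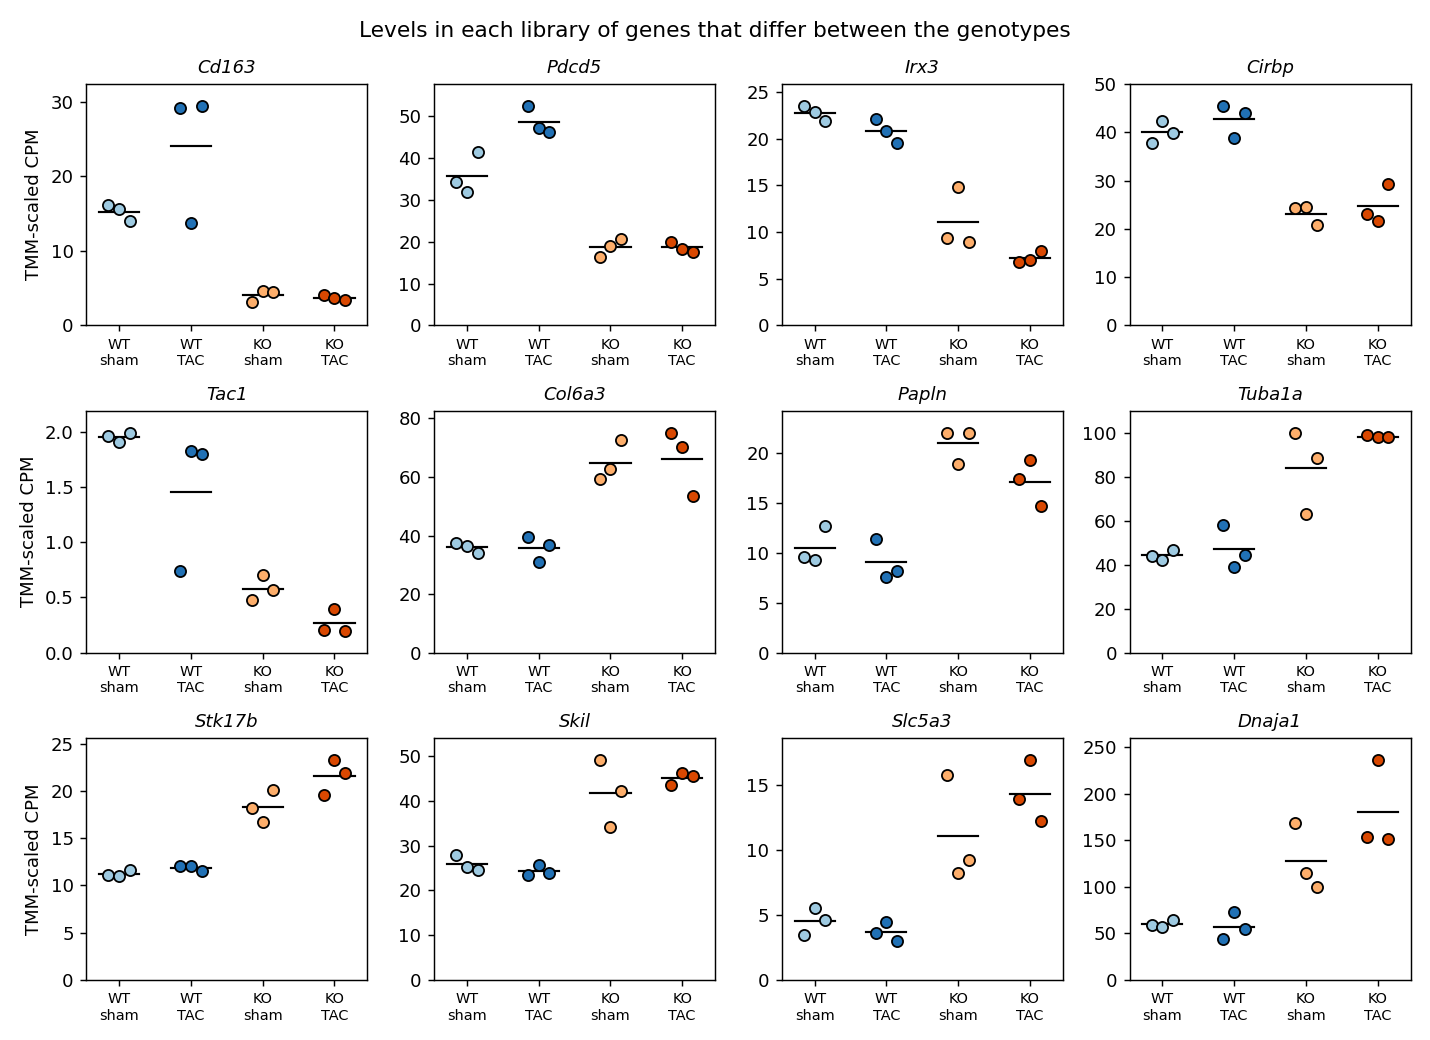
TMM-scaled CPM (vertical axes, each from 0) in the 3 libraries of each genotype and surgery for 12 of the 14 genes called in all 25 fits. Each point is a library and the line is the mean of its group. In each panel all 6 KO points lie on 1 side of all 6 WT points, for Cd163 between 3.14 and 4.60 against 13.7 and 29.5 CPM.

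Several of the largest rises among separated genes were in transcription factors and signal inhibitors that are induced within minutes to hours of stimulation. Of 16 immediate early genes tested, 8 rose and none fell, beside 12.6% of all tested genes that rose. Of the 16, 3 were separated, beside 1.63% of all tested genes that were separated and higher. With single libraries left out 3 to 11 rose, and without both WT TAC replicate 1 and KO sham replicate 1 the count was 3, as it was with library totals. The median of the list was 1.52, against 0.00 over all genes, and it was 0.79 after sham (0.185 without KO sham replicate 1) and 2.03 after TAC. The 3 separated members were Atf3, Egr2 and Egr3. Atf3, a stress-induced factor of the CREB and ATF family, stood at 3.12 to 10.2 CPM in WT (median 6.82) and 16.0 to 44.1 CPM in KO (median 21.2), a rise of 1.88 ± 0.32 (adjusted p 0.0153). Egr2, a zinc-finger factor, stood at 0.423 to 1.51 CPM in WT (median 0.947), at 14.4, 2.88 and 1.87 CPM in KO sham and at 2.76, 2.82 and 11.4 CPM in KO TAC. KO sham replicate 1 and KO TAC replicate 5 thus carried much of its rise of 2.61 ± 0.56 (adjusted p 0.0194). Egr3 had the same pair of high libraries, 21.0 and 22.4 CPM, over 3.66 to 8.92 CPM in the other KO libraries and 1.63 to 3.39 CPM in WT. Without both WT TAC replicate 1 and KO sham replicate 1, the rises were 1.68 for Atf3, 2.01 for Egr2 and 1.60 for Egr3, each with an adjusted p under 0.05. Fos and Jun, the founding members of the class, had log2 fold changes of 1.48 and 0.29 with adjusted p-values of 0.145 and 0.237.

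Other large rises without overlap were in Wnt4, Slc44a5, S100a7a, Klf2, Sik1, Errfi1, Zmym1 and Brca1. Wnt4, a secreted Wnt ligand, was nearly absent from WT at 0 to 0.272 CPM and stood at 0.411 to 2.55 CPM in KO (2.65 ± 0.60, adjusted p 0.0211). Klf2, a factor of endothelial cells that responds to flow, stood at 34.4 to 56.9 CPM in WT and 62.8 to 158 CPM in KO (1.40 ± 0.22, adjusted p 0.0126). Errfi1, an inhibitor of the epidermal growth factor receptor, stood at 18.8 to 25.4 CPM in WT and 40.1 to 123 CPM in KO (1.43 ± 0.26, adjusted p 0.0163). Sik1, a salt-inducible kinase that restrains CREB coactivators, stood at 17.5 to 42.1 CPM in WT and 43.6 to 182 CPM in KO (1.44 ± 0.34, adjusted p 0.0228).

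Sik1 and Atf3 had company in the cAMP-response pathway, in which CREB-family factors bind a palindromic site in promoters. This grouping was made after the values were seen. Creb5 stood at 7.83 to 12.5 CPM in WT and 12.7 to 29.8 CPM in KO (1.09 ± 0.17, adjusted p 0.0119). Creb5 overlapped under 4 of the 5 other scalings, library totals and both trend removals among them. Crem, which encodes both activators and inducible repressors, stood at 7.36 to 11.1 CPM in WT and 12.9 to 25.5 CPM in KO (0.99 ± 0.17, adjusted p 0.0153). Slc25a25, a calcium-dependent carrier of ATP across the inner mitochondrial membrane, stood at 6.26 to 9.51 CPM in WT and 11.7 to 35.1 CPM in KO (1.37 ± 0.25, adjusted p 0.0159).

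The promoters of separated genes were searched for 5 short motifs in windows of RefSeq (GRCm38.p6) from 250 bases before to 50 bases after each gene's start, on both strands. The motifs were chosen after the gene results were known, and a match is a description of these letters and no evidence of binding. RefSeq windows were at hand for 166 of the 235 higher and 162 of the 222 lower called genes without overlap, and for 11172 tested genes. The cAMP response element TGACGTCA was present in 6.63% of the higher genes (11), in 1.85% of the lower genes (3) and in 3.41% of all tested genes. The higher genes with it were Atad2b, Btaf1, Creb5, Elovl5, Errfi1, Rad51c, Rap1b, Slc25a25, Tmem39a, Ywhah and Zbtb21. The E-box CACGTG was present in 9.64%, 11.1% and 11.4% of the higher, lower and all genes, the early growth response site GCGTGGGCG in 1.81%, 1.23% and 1.41%, and the oestrogen-related receptor site TCAAGGTCA in 0.602%, 0% and 0.34%.

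The stretches of 250 bases before the start are given for the 3 of those 11 genes with the largest rises, Errfi1, Slc25a25 and Creb5, with the element in capitals, because they show where it lies in genes with all 6 KO libraries above WT, for Creb5 only under some scalings. The element begins at position -51 in Errfi1 (chr4:150854820-150855069, plus strand), at -150 in Slc25a25 (chr2:32424067-32424316, minus strand) and at -45 in Creb5 (chr6:53287053-53287302, plus strand), counted back from the start, which for each of the 3 is 1 of several starts in RefSeq. The sources used here do not give the build of the deposited counts, and these coordinates are those of RefSeq.
Errfi1: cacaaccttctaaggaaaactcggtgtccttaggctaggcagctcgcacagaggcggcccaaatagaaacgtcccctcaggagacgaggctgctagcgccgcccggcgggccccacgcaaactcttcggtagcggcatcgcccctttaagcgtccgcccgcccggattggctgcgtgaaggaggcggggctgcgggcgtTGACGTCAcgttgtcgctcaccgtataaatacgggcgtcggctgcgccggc
Slc25a25: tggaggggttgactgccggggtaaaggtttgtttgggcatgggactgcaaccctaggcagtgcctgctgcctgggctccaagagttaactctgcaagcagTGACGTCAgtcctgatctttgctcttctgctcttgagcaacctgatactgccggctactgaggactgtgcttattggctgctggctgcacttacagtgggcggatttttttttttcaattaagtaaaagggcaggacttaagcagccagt
Creb5: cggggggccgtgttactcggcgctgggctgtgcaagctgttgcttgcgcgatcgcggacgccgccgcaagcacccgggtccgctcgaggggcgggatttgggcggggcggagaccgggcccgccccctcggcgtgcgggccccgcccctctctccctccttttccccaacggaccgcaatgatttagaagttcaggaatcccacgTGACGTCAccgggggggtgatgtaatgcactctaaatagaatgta

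Chaperone genes moved in both directions. Of 17 genes of heat shock and protein folding, 6 rose and 3 fell, beside 12.6% and 11.7% of all tested genes. The list median was -0.10. Without KO TAC replicate 3 the counts were 1 and 0. Dnaja1, the cytosolic Hsp40 that hands unfolded proteins to Hsp70, stood at 43.7 to 72.9 CPM in WT (median 58.3) and 100.3 to 236 CPM in KO (median 152). It rose 2.59-fold (1.37 ± 0.19, adjusted p 0.00868), by 1.08 after sham and 1.66 after TAC. The inducible Hsp70 genes Hspa1a and Hspa1b, near-identical copies between which reads cannot be assigned with certainty, rose by 2.71 ± 0.56 and 2.42 ± 0.58, with WT TAC replicate 3 overlapping the KO range. Hsph1 and Dnajb1, partners of Hsp70, rose by 1.07 ± 0.29 and 0.75 ± 0.19, also with overlap.

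The mitochondrial chaperone went the other way. Hspe1, the Hsp10 lid of the mitochondrial folding chamber, stood at 74.0 to 144 CPM in WT (median 92.9) and 55.3 to 67.7 CPM in KO (median 63.2), a fall of 0.66 ± 0.14 on the log2 scale (adjusted p 0.0196). The small heat shock proteins of muscle Hspb7, Hspb6 and Cryab fell by 1.27, 0.71 and 0.51, and of these Hspb7 was separated, at 1066 to 2332 CPM in WT and 436 to 968 CPM in KO. The paired heat shock unit GAANNTTC was present in 5.42% of the higher genes, 6.17% of the lower genes and 6.95% of all genes. It stands before both Dnaja1 and Hspe1, which moved oppositely, and the stretches of 250 bases before their starts are shown for that reason with the unit in capitals, at position -124 in Dnaja1 (chr4:40722218-40722467, plus strand) and -84 in Hspe1 (chr1:55087898-55088147, plus strand). The start of Dnaja1 is 1 of several. Exons of Dnaja1 overlap those of Smu1, and exons of Hspe1 those of Hspd1, on opposite strands.
Dnaja1: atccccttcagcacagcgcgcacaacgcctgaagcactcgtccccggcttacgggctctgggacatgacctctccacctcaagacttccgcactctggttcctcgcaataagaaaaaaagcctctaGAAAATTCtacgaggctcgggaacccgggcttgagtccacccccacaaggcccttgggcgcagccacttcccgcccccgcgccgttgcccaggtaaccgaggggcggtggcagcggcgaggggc
Hspe1: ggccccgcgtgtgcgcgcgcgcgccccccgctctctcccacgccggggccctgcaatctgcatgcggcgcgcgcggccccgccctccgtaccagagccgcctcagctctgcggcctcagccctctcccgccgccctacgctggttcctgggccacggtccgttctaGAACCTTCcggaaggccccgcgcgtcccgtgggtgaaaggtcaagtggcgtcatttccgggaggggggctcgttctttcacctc

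Some matrix genes rose. Of 35 extracellular matrix genes 10 rose and none fell, beside 12.6% of all tested genes that rose, with a median of 0.50, which was 0.89 after sham and 0.07 after TAC. With single libraries left out 3 to 12 rose, and 7 did without both WT TAC replicate 1 and KO sham replicate 1, and 3 with library totals. Col6a3 and Col15a1 were separated, beside 1.63% of all tested genes that were separated and higher. Col6a3, a chain of the beaded collagen that anchors cells to the basement membrane, stood at 31.1 to 39.3 CPM in WT (median 36.6) and 53.4 to 75.1 CPM in KO (median 66.4), and rose by nearly the same step after sham (0.85) and after TAC (0.89). The rise over both was 0.87 ± 0.11 (adjusted p 0.00491). Col15a1, a collagen of the basement membrane zone of vessels and muscle, stood at 50.5 to 90.9 CPM in WT and 102 to 185 CPM in KO (0.93 ± 0.14, adjusted p 0.0114). Thbs1, Lum, Sparc and Dcn rose with overlap.

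Outside the list, separated genes included others of the basement membrane and of collagen assembly. This group was also put together after the values were seen, and it has no test. Separated genes of like roles that fell, P3h4 and Mmp11 among them, were left out, so its common direction comes from the choice. It holds 11 genes, all higher and all called, with log2 fold changes from 0.44 to 1.02. They include the collagen IV chains Col4a3 and Col4a4, the linker Nid2, the proteoglycan perlecan (Hspg2), the laminin chain Lama4, peroxidasin (Pxdn), which cross-links collagen IV, the collagen hydroxylases Plod1 and P4ha1, and the proteases Adamts1 and Adamts9. Hspg2 stood at 314 to 498 CPM in WT and 546 to 637 CPM in KO (0.55 ± 0.14, adjusted p 0.0263), and Pxdn at 62.9 to 115 CPM in WT and 124 to 163 CPM in KO (0.72 ± 0.16, adjusted p 0.0214). With library totals in place of TMM, 3 of the 11 stayed separated, and 6 did after removal of a trend with exon length.

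A further 11 separated genes, grouped in the same way, act on actin filaments and cell adhesion, and all 11 rose. Separated actin genes that fell, Twf2 and Arpc5l among them, were left out of this group, so its direction comes from the choice. Nonmuscle myosin Myh9 stood at 113 to 148 CPM in WT and 158 to 218 CPM in KO (0.55 ± 0.11, adjusted p 0.0184). Zyx, a protein of focal adhesions, stood at 36.3 to 41.6 CPM in WT and 47.9 to 81.3 CPM in KO (0.63 ± 0.13). With library totals 2 of the 11 stayed separated. The factors Nfkb1 and Rela, subunits of NF-kappaB, and Nfe2l2, the antioxidant factor Nrf2, were also separated. They rose by 0.44, 0.40 and 0.46 (adjusted p 0.0179 to 0.0261). With library totals only Nfe2l2 stayed separated, and Rela also overlapped after removal of the GC trend.

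Many genes of fatty acid oxidation and the citric acid cycle fell, and fewer of glycolysis and the respiratory chain. Of 30 fatty acid oxidation genes 21 fell and none rose, beside 11.7% of all tested genes that fell. Of 18 citric acid cycle genes 11 fell, of 20 glycolysis genes 6, and of 25 nuclear genes of the respiratory chain 6, again with no rise. The list medians were -0.92, -0.97, -0.62 and -0.45. Without both WT TAC replicate 1 and KO sham replicate 1 the falls numbered 19, 9, 7 and 4. Without WT TAC replicate 3 they numbered 0, 0, 0 and 1, without either KO TAC replicate 1 or KO TAC replicate 3 all 4 counts were 0, with library totals they were 1, 0, 1 and 0, and without KO sham replicate 3 they were 24, 18, 17 and 16. Few of these genes were separated, and 1.57% of all tested genes were separated and lower. In the fatty acid list it was Fabp3, the carrier of fatty acids in the cardiomyocyte cytosol, at 2044 to 3162 CPM in WT (median 2640) and 685 to 1973 CPM in KO (median 900), a fall of 1.16 ± 0.27 (adjusted p 0.0225). The citric acid cycle had Idh2, at 1264 to 1829 CPM in WT and 522 to 1248 CPM in KO (a fall of 0.72 ± 0.19, adjusted p 0.0281), which overlapped after removal of the length or the GC trend. For glycolysis it was the glucose transporter Slc2a1, at 8.95 to 16.0 CPM in WT and 6.51 to 8.48 CPM in KO, a fall of 0.59 ± 0.14 (adjusted p 0.0237). The 4 medians after sham were -0.49, -0.49, -0.30 and -0.30, and after TAC -1.37, -1.46, -0.82 and -0.66. Without KO sham replicate 1 those after sham were -0.14, -0.06, -0.06 and -0.08, so that the lower levels after sham in these lists lay mostly in that library.

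Several small subunits of the respiratory chain and of ATP synthase, and the assembly factor Cox14, were separated. In this group of 9, assembled after the values were seen and with 2 genes of the respiratory chain list (Uqcrb and Ndufb10) in it, every gene fell, by 0.36 to 0.78 on the log2 scale. Cox7c, a subunit of cytochrome oxidase, stood at 447 to 637 CPM in WT and 277 to 374 CPM in KO (a fall of 0.76 ± 0.13, adjusted p 0.0155). Uqcrb of complex III stood at 363 to 591 CPM in WT and 233 to 352 CPM in KO (a fall of 0.68 ± 0.16, adjusted p 0.0211). Atp5g2, a ring subunit of ATP synthase, stood at 114 to 152 CPM in WT and 69.2 to 99.1 CPM in KO (a fall of 0.78 ± 0.12, adjusted p 0.0117). The others were Cox7b, Cox14, Ndufb4, Ndufb10, Atp5j and Usmg5. After removal of the length trend 8 of the 9 stayed separated, and with library totals 3 did.

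A further 11 separated genes of mitochondria, also grouped after the values were seen, fell by 0.33 to 1.38. Among them were the ketone enzyme Bdh1, the importer Timm10, the iron-sulfur scaffold Iscu and the ribosomal subunits Mrps36 and Mrpl16. Separated mitochondrial genes that rose, Sardh, Mthfd2l and Slc25a25 among them, were left out, so the common direction comes from the choice. Bdh1 stood at 49.8 to 218 CPM in WT (median 72.7) and 23.4 to 42.9 CPM in KO (median 39.1), a fall of 1.38 ± 0.23 (adjusted p 0.0153). The 13 protein genes of the mitochondrial genome itself did not follow. None was called, their median was 0.43, and it was -0.05 after sham (-0.50 without KO sham replicate 1) and 0.85 after TAC. The smallest p of that list was that of mt-Nd3, at 653 to 1304 CPM in WT and 591 to 3255 CPM in KO (0.94 ± 0.38, adjusted p 0.0779).

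Genes of the contractile apparatus were lower. Of 22 genes of contraction and calcium handling 9 fell and none rose, beside 11.7% of all tested genes that fell. The list median was -0.57, and of the 8 cardiomyocyte markers 3 fell. With single libraries left out 1 to 13 of the 22 fell, and 2 with library totals. The median was -0.42 after sham (-0.22 without KO sham replicate 1) and -0.65 after TAC. Tnnt2, the cardiac troponin T that anchors troponin to the thin filament, was the separated one, at 7011 to 8875 CPM in WT (median 7557) and 4633 to 5821 CPM in KO (median 5458). It fell by 0.56 ± 0.14 (adjusted p 0.0254), by 0.61 after sham (-0.61) and 0.51 after TAC (-0.51). Actc1, the cardiac actin, shows the other pattern. It stood at 8706 and 9792.5 CPM in KO sham replicates 2 and 3, above the 5647 to 8686 CPM of WT, and at 2009 to 2236 CPM in the other 4 KO libraries (adjusted p 0.0588). Further muscle genes without overlap were desmin (Des), at 1120.3 to 2097 CPM in WT and 706 to 1086 CPM in KO (a fall of 0.74 ± 0.20, adjusted p 0.0308), and the sarcomere ubiquitin ligase Trim54, at 102 to 176 CPM in WT and 42.0 to 86.9 CPM in KO (a fall of 1.13 ± 0.21, adjusted p 0.0169).

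In the list of cardiac stress genes, 1 of 15 rose and 3 fell, beside 12.6% and 11.7% of all tested genes, with a median of -0.37. The median was 0.17 after sham and -0.94 after TAC, and 0 to 4 fell with single libraries left out. Of this list Hspb7 and Nmrk2 were separated, both lower, against 1.57% of all tested genes. Nmrk2 is a kinase of the NAD salvage pathway in muscle. It stood at 13.6 to 21.2 CPM in WT and 4.26 to 12.8 CPM in KO (a fall of 0.91 ± 0.22, adjusted p 0.0237).

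Several detoxifying enzymes fell. Of 21 antioxidant and glutathione genes 9 fell and 1 rose, beside 11.7% and 12.6% of all tested genes. The median was -0.29, and 3 to 11 fell with single libraries left out and 3 with library totals. Nqo1, a quinone reductase, stood at 34.3 to 65.7 CPM in WT (median 52.9) and 18.9 to 34.1 CPM in KO (median 24.1), a fall of 0.99 ± 0.17 (adjusted p 0.0155), with the genotypes only just apart and overlapping once the length trend was removed. Gsta4, a glutathione transferase for lipid aldehydes, stood at 46.8 to 63.3 CPM in WT and 19.1 to 41.5 CPM in KO (a fall of 0.97 ± 0.19, adjusted p 0.0171). Gstm2 stood at 55.2 to 71.5 CPM in WT and 32.9 to 49.4 CPM in KO (a fall of 0.61 ± 0.10, adjusted p 0.0155). Both Gsta4 and Gstm2 also overlapped once the length trend was removed. Gstm1, a close copy of Gstm2, fell by 0.71 ± 0.13 with overlap. Catalase (Cat), Sod2, Prdx1, Prdx3 and Prdx6 fell with overlap, and Gclc, which makes the first step of glutathione synthesis, rose by 0.42 ± 0.11.

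The pathway in which CD163 works showed no common direction. Of 23 genes for haemoglobin and haem handling 4 rose and 6 fell, beside 12.6% and 11.7% of all tested genes. The median was -0.31 (0.10 after sham and -0.41 after TAC). Transferrin (Trf), the iron carrier of plasma that heart tissue also transcribes, was the separated one. It stood at 14.7 to 29.0 CPM in WT (median 25.8) and 32.5 to 39.2 CPM in KO (median 38.6), a rise of 0.63 ± 0.14 (adjusted p 0.0197). Hemopexin (Hpx), which binds free haem, and Ftl1, the ferritin light chain, rose by 1.84 ± 0.44 and 0.49 ± 0.15 with overlap. The iron exporter Slc40a1, the haem oxygenase Hmox2, ceruloplasmin (Cp) and ferrochelatase (Fech) fell by 0.85, 0.90, 0.65 and 0.77, also with overlap. Outside the list, the copper-dependent iron oxidase Heph was separated, at 1.72 to 3.12 CPM in WT and 3.52 to 5.05 CPM in KO (0.66 ± 0.16, adjusted p 0.0230), and the proton-coupled transporter of folate and haem Slc46a1 was separated and lower without being called (-0.46 ± 0.16, adjusted p 0.0559).

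Of 12 genes of the interleukin-10 axis 5 rose and 1 fell, beside 12.6% and 11.7% of all tested genes. The median was 0.47, and no gene was separated. The smallest p was that of the interleukin-4 receptor chain Il4ra, at 11.03 to 20.7 CPM in WT and 14.5 to 38.2 CPM in KO (0.72 ± 0.15, adjusted p 0.0187). Il10rb, a chain of the interleukin-10 receptor, fell by 0.43 ± 0.14 (adjusted p 0.0420). Of 18 cytokines and chemokines 2 rose and 1 fell, beside the same shares of all tested genes, with a median of 0.22. The one that fell, Cxcl14, was separated, at 9.19 to 16.0 CPM in WT and 6.07 to 7.81 CPM in KO. Cxcl14 fell by 0.80 ± 0.14 (adjusted p 0.0158).

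No other macrophage marker tested was called lower, though 5 of 18 resident and 5 of 18 general macrophage genes had log2 fold changes below 0. Of 18 resident macrophage genes other than Cd163, 5 were called higher and none lower, beside 12.6% and 11.7% of all tested genes. The list median was 0.42, and the summed level ran from 303 to 378 CPM in WT and from 371 to 516 CPM in KO. Stab1, a scavenger receptor of resident macrophages and of some endothelium, stood at 50.4 to 97.4 CPM in WT and 72.1 to 164 CPM in KO (1.01 ± 0.21, adjusted p 0.0181). Lyve1 and Mrc1 rose by 0.49 ± 0.13 and 0.41 ± 0.12. Of 18 genes of all macrophages 2 rose, again beside 12.6% of all tested genes. Their median was 0.23 (0.395 after sham and -0.12 after TAC), with sums of 263 to 473 CPM in WT and 356 to 389 CPM in KO. Laptm5, a lysosomal protein of blood-derived cells, was separated by a narrow gap, at 11.8 to 18.0 CPM in WT and 18.4 to 25.6 CPM in KO (0.60 ± 0.12, adjusted p 0.0176), and its call was lost with library totals. Of 7 genes for MHC class II none was called (median -0.08). Of 11 genes of the scavenger receptor cysteine-rich family, to which CD163 belongs, 2 rose and 2 fell, beside 12.6% and 11.7%. The median was 0.21 (0.77 after sham and -0.15 after TAC). Corin, a cardiac protease of that family, fell by 0.69 ± 0.14 with overlap.

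Markers of other cell types moved with the genotype in part. Their counts stand beside 12.6% of all tested genes that rose and 11.7% that fell. Of the 5 atrial cardiomyocyte genes Bmp10 rose, with an adjusted p of 0.0179 that limma-voom did not share, and the median was 3.87. The list summed to 81.3 to 1730 CPM in WT and 263 to 2990 CPM in KO, and Bmp10 stood at 0 to 0.272 CPM in WT and at 0 to 35.7 CPM in KO. Of 6 mesothelium genes Wt1 rose by 1.71 ± 0.27 (adjusted p 0.0129), the median was 1.74, and the list summed to 4.84 to 23.0 CPM in WT and 7.23 to 74.2 CPM in KO. The adipocyte list had 4 of 6 genes tested, of which 2 rose (median 2.29), and summed to 0.0492 to 4.77 CPM in WT and 2.06 to 10.3 CPM in KO, with Retn and Adipoq at 0 in WT TAC replicate 1. Of 12 genes of cartilage-like and valve matrix 5 rose and 1 fell (median 1.27), led by Tnmd, at 0 to 0.227 CPM in WT and 0.187 to 2.48 CPM in KO. None of these lists had a separated member. Their medians after sham were 1.11, 0.67, 0.73 and 0.76, and without KO sham replicate 1 they were -0.86, -2.50, 0.02 and -0.08. Whether the amount of atrial, epicardial, fat or valve tissue in a library bears on the separated genes was not tested.

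Endothelium had 1 of 7 markers higher, Tek, by 0.40 ± 0.12 (median 0.40), beside 12.6% of all tested genes that rose. Fibroblasts had 2 of 7, Lum and Dcn (median 0.33, 0.58 after sham and -0.05 after TAC). Of 4 tested T cell genes Trbc2 rose (median 1.00). No marker was called among 6 of smooth muscle and pericytes (median 0.04), 5 of Schwann cells (0.48), 5 of red blood cells (0.14) and 2 tested ones of neutrophils (-0.05). Of 22 interferon response genes 3 rose, again beside 12.6%, with a median of 0.51 (1.03 after sham and 0.03 after TAC) and Ddx58 the smallest p, and of 20 ribosome genes none was called (median 0.03). Of 16 circadian clock genes 3 rose and 2 fell (median 0.17), beside 12.6% and 11.7% of all tested genes. The repressor Cry2 was separated, at 18.4 to 30.6 CPM in WT and 12.2 to 17.5 CPM in KO. Cry2 fell by 0.64 ± 0.12 (adjusted p 0.0171). The sources used here do not give the hour of collection. Single left-out libraries moved the counts of these lists too. The rises ran from 0 to 15 among interferon response genes (lowest without KO TAC replicate 3, and 14 without both WT TAC replicate 1 and KO sham replicate 1), from 1 to 7 among resident macrophage genes and from 0 to 7 in the interleukin-10 axis. In haem handling the rises ran from 0 to 7 and the falls from 0 to 9, both lowest without KO TAC replicate 3.

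**Figure D3:**
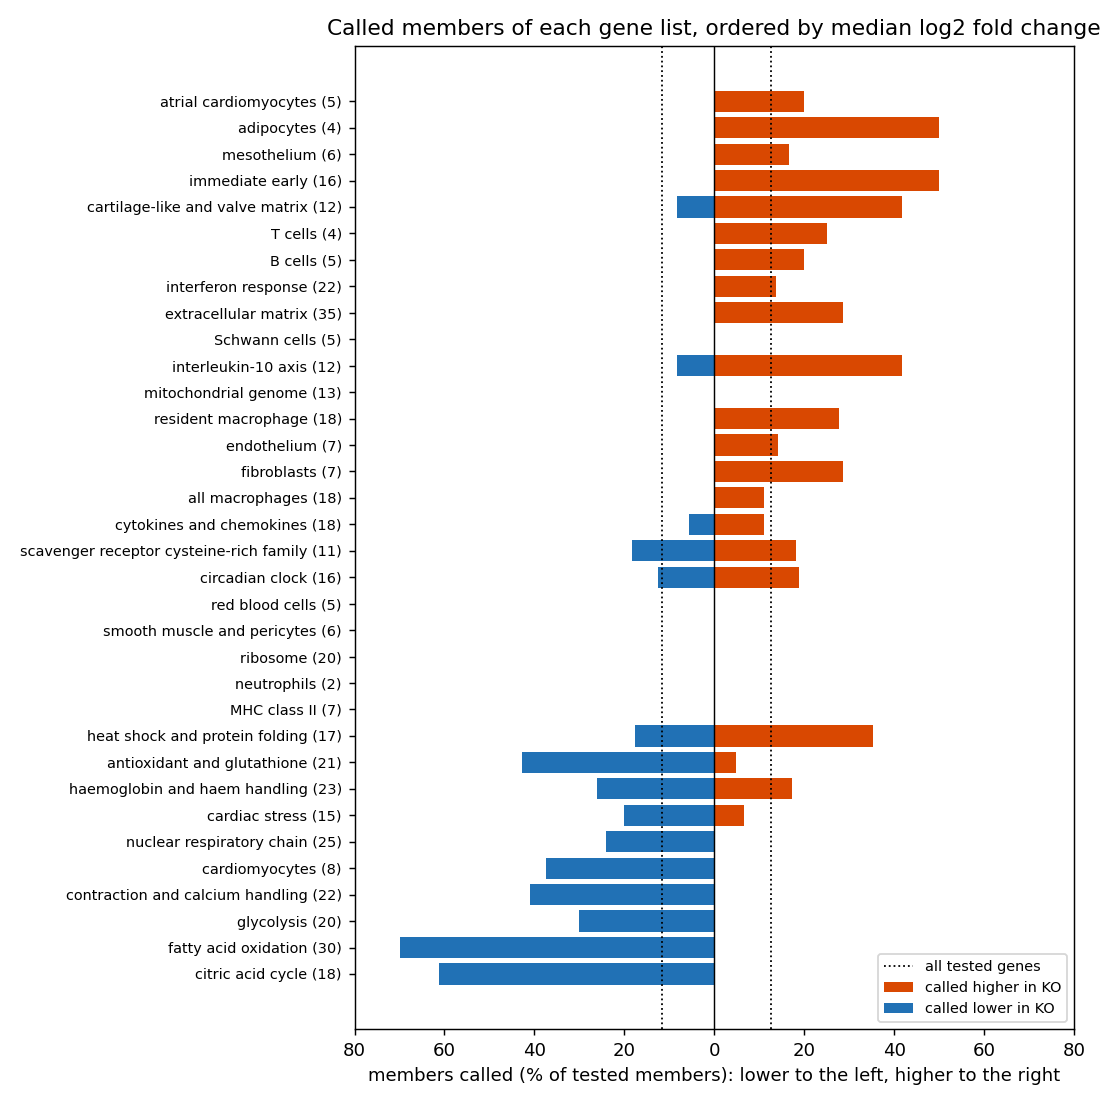
Share of the tested members of 34 gene lists that were called lower (blue, to the left) or higher (orange, to the right) in KO, in percent of the tested members, whose number is in parentheses. Lists are ordered by the median log2 fold change, and dotted lines mark the shares of all tested genes, 11.7% lower and 12.6% higher. The bars of fatty acid oxidation (21 of 30) and the citric acid cycle (11 of 18) reach farthest to the left.

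The difference of the separated genes had 1 sign in both surgeries for all 505, which their choice fixes, and 12219 of 15804 tested genes also had the same sign in both. The fitted size was larger after TAC for most of the separated genes. Their median absolute log2 change was 0.45 after sham and 0.69 after TAC, and 409 of the 505 had the larger change after TAC. Without KO sham replicate 1 the medians were 0.37 and 0.68, with 437 larger after TAC. The same medians and count are not given here for all tested genes. Whether the larger size after TAC is particular to the separated genes was therefore not tested. The interaction test of edgeR called 0 genes (0% of the genes tested), with a lowest adjusted p of 0.0545 over all genes and 0.308 among the separated ones. At an unadjusted p under 0.05 it gave 1452 of the 15804 tested genes and 56 of the 505 separated ones. DESeq2 called 94 genes for the interaction (0.595%), among them the separated genes Nmrk2 and Arl2bp. Nmrk2 changed by -0.32 after sham and -1.53 after TAC (DESeq2 adjusted p 0.0337, edgeR 0.308), and Arl2bp, a partner of the small GTPase ARL2, by -0.27 and -1.05 (DESeq2 adjusted p 0.0304, edgeR 0.361). The count of interactions turned on KO sham replicate 1. Without it edgeR called 1961 genes (12.1% of those tested), 50 of the separated genes among them, without WT TAC replicate 1 it called 4 genes (0.0248%) and no separated gene, and without both it called 5774 (36.1%) and 123. These refits were chosen after seeing the data. With all 12 libraries, the absence of interaction calls therefore does not show that the genotype difference was of equal size in the 2 surgeries.

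**Figure D4:**
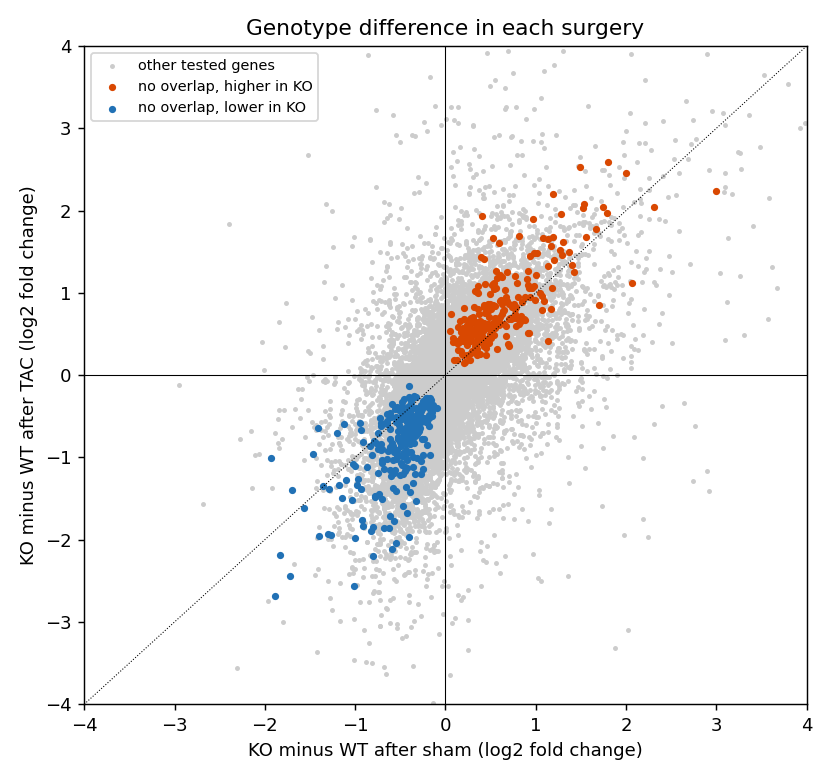
Log2 fold change of KO against WT after sham (horizontal axis) and after TAC (vertical axis) for each tested gene, with genes without overlap in orange (257 higher in KO) or blue (248 lower) and all others in grey. The dotted diagonal marks equal changes, and 68 genes with a change beyond 4 in either direction, 3 of them without overlap, lie outside the axes. All coloured points lie in the quadrants of 1 sign, and 409 of the 505 changed more after TAC.

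Genes around Cd163 moved in both directions. Of the 100 tested genes nearest to it on chromosome 6, 50 on each side, 10 rose and 11 fell, beside 12.6% and 11.7% of all tested genes. Their median was 0.01, and 4 were separated, all lower, beside 1.57% of all tested genes. With library totals 2 rose and 1 fell, and with single libraries left out the rises ran from 1 to 16 and the falls from 1 to 21. The 4 separated neighbours were Vamp1, a vesicle fusion protein, Pex5, the import receptor of peroxisomes, Grcc10 and Gm20692. Vamp1 stood at 11.8 to 14.8 CPM in WT (median 14.1) and 4.14 to 11.1 CPM in KO (median 5.14), a fall of 1.07 ± 0.20 (adjusted p 0.0162). Pex5 fell by 0.36 ± 0.09, and 25 of 814 tested genes of chromosome 6 were separated (3.07%). Across the other autosomes and X the share lay between 2.43 and 5.03%, highest on chromosome 13.

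Some separated genes differed by near absence, and they are named here after their values were seen. Gm47283, assigned to chromosome Y, stood at 1.27, 0.817 and 1.59 CPM in the sham-operated WT hearts and at 11.9, 21.6 and 3.81 CPM in those with TAC. It was at 0 in 5 KO libraries and at 0.0411 CPM in KO sham replicate 2 (adjusted p 0.000738). Gm21887, assigned to chromosome X, stood at 0.681 to 3.10 CPM in WT and at 0 in 5 KO libraries, with 0.0690 CPM in KO TAC replicate 1 (adjusted p 0.000738). Their transcripts share 501 words of 31 letters, which is 46.8% of those of Gm47283 and 62.0% of those of Gm21887, so reads cannot be assigned to 1 of them with certainty. Of 8 tested genes on chromosome Y 2 were separated, Gm47283 lower and Eif2s3y higher. Over all tested genes 1.57% were separated and lower and 1.63% separated and higher. Eif2s3y rose by 0.39 ± 0.11 (adjusted p 0.0331). Nnt, the mitochondrial transhydrogenase, of which C57BL/6J mice carry a deleted form, stood at 1.27 to 2.06 CPM in WT and 0.758 to 1.12 CPM in KO (1.78-fold lower in KO, adjusted p 0.0216). How closely the WT and KO colonies are related was not tested.

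Separated genes also differed in length. The median exon length was 5807 bases for those higher in KO and 2494 bases for those lower, against 4071 bases over the tested genes, and GC content was 47.6%, 51.7% and 49.5%. With the tested genes cut into 10 bins of exon length, in the bin of shortest exons (median 780 bases) 9 were separated upward and 45 downward, and in the bin of longest exons (median 12025 bases) 59 upward and 3 downward. The median log2 fold change of these bins was -0.09 and 0.09, and it was -0.01 and 0.00 after sham and -0.14 and 0.15 after TAC. After removal of a length trend from each library, 457 genes were separated, 324 of them among the 505, and 430 of the 457 called genes were called. The sources used here do not give RNA quality numbers of the libraries, and whether RNA integrity bears on the length difference was not tested.

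**Figure D5:**
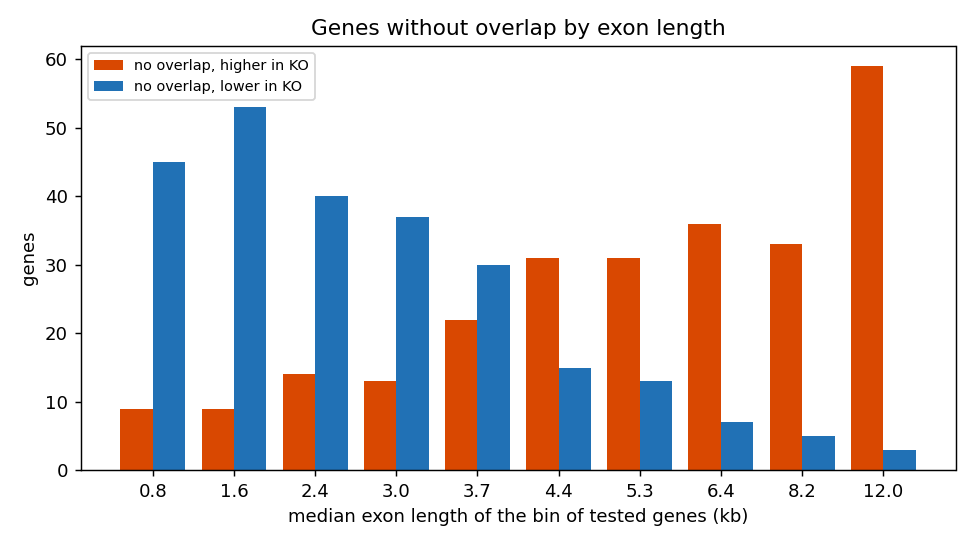
Number of genes without overlap, higher in KO (orange) and lower in KO (blue), in 10 bins of the tested genes ordered by exon length. The horizontal axis gives each bin's median exon length in kilobases. Counts of higher genes go from 9 in the shortest bin to 59 in the longest, and counts of lower genes from 45 to 3.

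At the edge of the criterion, Slc38a2, an amino acid transporter, was just inside, its highest WT library at 212.95 CPM and its lowest KO library at 213.07 CPM. 1110059G10Rik was just inside on the lower side, at 9.62 CPM in its lowest WT and 9.61 CPM in its highest KO library. Zfyve16 and Cdadc1 were just outside, with overlaps of under 0.01 CPM at 20.8 and 34.8 CPM. Exons of 16.7% of the higher and 22.2% of the lower separated genes overlap those of another tested gene, against 21.0% of all tested genes.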

How the data were processed

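Heart mRNA of 12 mouse libraries was analysed from 1 table of whole-number read counts per gene, deposited by the authors without normalization. Reads were aligned with HISAT2, per the submitters' processing notes, whose version, like the counting program, strand use, build and annotation, the sources used here do not give. Libraries were made with oligo(dT) selection and read as 150 bp pairs, per the labels' protocols. The table lists 55357 Ensembl identifiers, of which 52081 were matched to a GENCODE M21 symbol, and 37 tested identifiers had none. No column was left unassigned.

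The test was that of edgeR 4.0.16 (R 4.3.3): filterByExpr by the 4 groups (15804 genes, over 99.8% of the counts of each library), TMM scaling and a robust quasi-likelihood fit of surgery plus genotype with 9 residual degrees of freedom. The Benjamini-Hochberg threshold was 0.05. Within-surgery changes and the interaction came from a fit with a coefficient per group (8 residual degrees of freedom). Separation was read from TMM-scaled CPM. The procedure was tested on simulated data. Every pair of replicates differed by more than counting noise. Alternatives used DESeq2 1.42.0, limma 3.58.1, other scalings and filters, and left-out libraries. Trends with exon length and GC content were removed in 2 alternatives. These and the interaction fits with libraries left out were chosen after seeing the data.

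The members and the 34 gene lists were chosen with earlier results of these data known. Named genes were Cd163 and Il10, up to 12 genes per direction with the largest change and up to 10 with the smallest p among called genes without overlap (mean of at least 1 CPM, no provisional symbol), up to 4 such genes of each list or else its gene of smallest p, the separated neighbours of Cd163, and the genes nearest the edge of the criterion. Other genes were chosen after their values were seen, and a few results are not reported here. Replicate numbers did not pair the samples: deviations of same-numbered libraries correlated at -0.194, 0.06 and -0.164 in sham and -0.133, -0.0493 and -0.136 in TAC.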

Additional observations from a re-analysis of the deposited data

Results flagged for a closer look

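Single libraries that stood far from the rest of their genotype were sought by Dixon's test (the gap to the nearest library over the range of 6, at the 95% level) in 81 named genes and 2 genotypes, 162 sets of 6 libraries. Chance flags about 1 set in 20, and 10 were found. WT TAC replicate 1 was the library in 5 of them. It was the lowest WT library for Tac1 (0.737 CPM), Gstm2 (55.2 CPM) and Slc38a2 (154 CPM) and the highest for Stab1 (97.4 CPM) and Ddx58 (31.3 CPM). KO sham replicate 2 was the lowest KO library for Tuba1a (63.3 CPM) and the highest for Corin (134 CPM). KO sham replicate 1 was the lowest KO library for Ndufb10 (236 CPM) and KO TAC replicate 1 for Cxcl14 (6.07 CPM). WT sham replicate 1 was the highest WT library for Alas2 (9.42 CPM), a gene of red cells that was not called.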

How the results depend on the processing

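Against 3845 called genes, library totals without TMM gave 830, the mitochondrial share as a covariate 32, a replicate block within surgery 25 (numbers that do not pair the samples, 17 of the 25 among the 457 separated and called genes) and a minimum change of 1.5-fold 3. Leaving out each library in turn gave 343 to 6138 calls and 545 to 1339 separated genes against 505. Separation is easier to meet with fewer libraries, which raises the counts of separated genes in fits with libraries left out. Library totals gave 259 separated genes, and the fit without both WT TAC replicate 1 and KO sham replicate 1 gave 1380. Among separated genes the interaction was called for 0 by edgeR and 2 by DESeq2, and by edgeR for 0 without WT TAC replicate 1, 50 without KO sham replicate 1 and 123 without both. DESeq2 called 5545 genes, limma-voom 2803 and edgeR without a count filter 2570, with 456, 406 and 314 of the 457. The fall of Cd163 was called in every fit. Across all named genes and alternatives 359 values lost the call in the same direction, 17 gained it and 1 reversed. That was S100a9, not called in any fit, whose change ran from -0.853 to 0.0741 with single libraries left out, the latter without WT TAC replicate 3 (adjusted p 0.954). The causes were not tested. The 6 libraries per genotype, of which 2 KO libraries lay among WT, limit what can be separated, and low genes such as Il10 could not be tested at this depth.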
